A study of Mus musculus with 12 samples.

Results

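The genes described here encode the MHC class II antigen presentation machinery and the costimulatory molecules that act beside it. They were taken by name, as a list of 10 genes, through every probe set that the platform annotation assigns to a single gene. This gave 23 probe sets for 9 of the 10 genes, out of 45037 probe sets and 18193 genes in the table. H2-DMb1 had 2 probe sets, both annotated to H2-DMb2 as well, so no value is given for it.

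MHC class II molecules are pairs of an alpha and a beta chain that carry peptides from engulfed proteins to the cell surface, where CD4 T cells read them. The chains assemble around the invariant chain Cd74, and H2-DM later exchanges its remnant for a peptide. Their genes are switched on by the coactivator CIITA, classically in dendritic cells, B cells and macrophages. In brain this is mainly a property of microglia and border macrophages, and astrocytes in culture can acquire it under interferon gamma. A T cell also needs a second signal, which CD80 and CD86 deliver through CD28, while CD40 on the presenting cell receives the CD40 ligand of the T cell.

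Transcripts were measured on 12 one-colour Affymetrix arrays in 4 groups of 3. The groups were adult astrocytes (mice of 6 to 8 weeks) on APdE9 brain sections, adult astrocytes on wild-type sections, neonatal astrocytes (3 d) on APdE9 sections and neonatal astrocytes on wild-type sections. All cells were cultured from C57Bl/6j mice, carried green fluorescent protein (eGFP), spent 22 h on the section, and were loosened with trypsin and picked by suction. APdE9 mice bear chimeric mouse/human APPSwe and PS1-dE9 transgenes, each under a mouse prion protein promoter, and the wild-type sections came from their littermates. The labels call the arrays of a group biological replicates and state that cells were pooled (n = 3) ahead of RNA extraction. Tests here see no more than the variation among such pools, which may be technical. Adult cells had been isolated with Percoll and grown with G5 supplement in a medium other than that of the neonatal cells, so age cannot be told apart from culture conditions. Each value below is a log2 signal from which the deposited table has already removed that probe set's median over the 12 arrays. A value of 0 is therefore the middle of the 12 arrays, differences between groups can be read, while the level of a gene is unknown. Precision is limited by having 3 arrays in a group, and within groups arrays correlated between 0.515 and 0.844 over all probe sets. Of 12 astrocyte markers, 7 were lower and 1 higher in adult than in neonatal cells on APdE9 sections, and 9 were lower and 2 higher on wild-type sections. These are 66.7% and 91.7% of the list, beside 23.5% and 30.1% of all genes. Gfap, the astrocyte filament protein, differed by -3.45 ± 0.11 on APdE9 and -4.24 ± 0.11 on wild-type sections (log2 difference ± SE of the limma fit). Whether the markers were above background could not be checked without levels.

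Promoters of class II genes share a module of an X box and a Y box, to which RFX and NF-Y bind before CIITA docks. RefSeq promoter windows (GRCm38.p6, 250 bases before to 50 after the annotated start) were matched for 5 of the 10 genes. The 2 classical class II genes among them are shown because both were far lower in adult cells. Capitals mark the X-box core GNAACT and the Y-box core GATTGG, letters that were chosen with these promoters in view. The H2-Aa window is chr17:34287774-34288073 on the minus strand, and the H2-Eb1 window is chr17:34305617-34305916 on the plus strand.
H2-Aa: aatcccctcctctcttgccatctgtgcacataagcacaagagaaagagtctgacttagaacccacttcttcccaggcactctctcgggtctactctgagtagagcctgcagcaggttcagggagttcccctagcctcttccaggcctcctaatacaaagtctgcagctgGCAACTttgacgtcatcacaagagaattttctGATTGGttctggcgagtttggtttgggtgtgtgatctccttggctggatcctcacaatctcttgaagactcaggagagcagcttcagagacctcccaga
H2-Eb1: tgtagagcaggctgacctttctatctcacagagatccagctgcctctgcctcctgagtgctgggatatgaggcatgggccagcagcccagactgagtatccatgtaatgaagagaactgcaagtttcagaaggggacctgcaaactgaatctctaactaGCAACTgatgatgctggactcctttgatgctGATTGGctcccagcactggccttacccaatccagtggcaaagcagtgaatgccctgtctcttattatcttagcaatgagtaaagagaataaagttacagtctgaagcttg

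In H2-Aa the X-box core began 81 bases before the start, with 26 bases between it and the Y-box core. In H2-Eb1 it began 91 bases before the start, with 25 bases between the cores. The H2-DMb1 window held the same pair at 94 bases, with 26 between. Searched on both strands, an X core followed within 20 to 30 bases by a Y core was present in 67 of 32851 RefSeq promoter windows of this length (0.204%). The X core alone was present in 42.8% and the Y core alone in 16.1%, and the 2 motifs share no overlap in a match. The pair was not found in the window of Cd80 or in the 2 windows of H2-DMa. A match is a description of these letters and was not tested as a binding site.

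The first question was how the genes differed with the age of the astrocytes. On APdE9 sections 8 of the 9 measured genes passed the test, 7 lower and 1 higher in adult cells, where 23.5% of all genes were called (11.9% lower and 11.7% higher). On wild-type sections 8 of 9 passed as well, 7 lower and 1 higher, where 30.1% of all genes were called (15.2% lower and 14.9% higher). The 4 classical class II and invariant chain genes and Cd86 were lower in adult cells, as were H2-DMa and Cd40 by smaller or less even amounts, and Cd80 was higher. Ciita was not called. The median log2 difference of the 9 genes was -1.37 on either section, against 0.05 over all genes on APdE9 sections and 0.01 on wild-type sections. Each call is a limma fit of 4 group means to all 12 arrays with a Benjamini-Hochberg adjusted p under 0.05 over all genes. In bulk RNA, fewer cells of a type and less RNA per cell cannot be told apart.

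**Figure D1:**
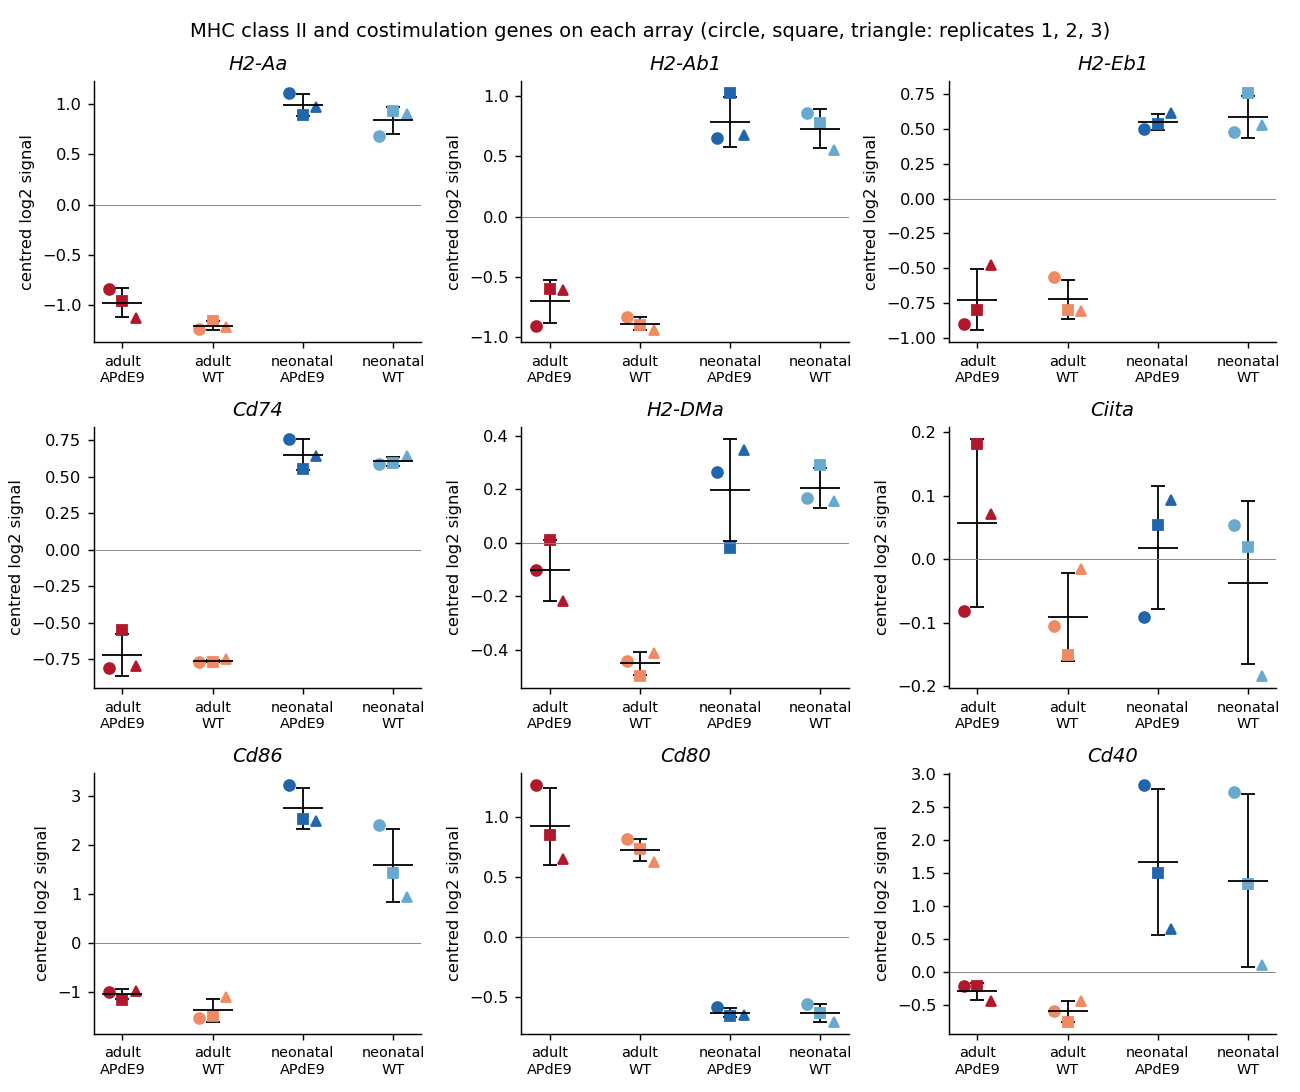
Centred log2 signal (0 is the probe sets' median over the 12 arrays) of the 9 measured genes on each array, by group, with the group mean as a long bar and the SD as whiskers (n = 3). H2-Aa, H2-Ab1, H2-Eb1 and Cd74 sit below 0 on all 6 adult arrays and above 0 on all 6 neonatal arrays, Cd80 shows the opposite, and Cd40 spreads between 0.11 and 2.85 on the neonatal arrays.

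H2-Aa encodes the alpha chain of the class II molecule I-A. Its values were -0.84, -0.95 and -1.13 in adult cells on APdE9 sections and -1.24, -1.15 and -1.22 in adult cells on wild-type sections, against 1.11, 0.88 and 0.97 in neonatal cells on APdE9 sections and 0.68, 0.93 and 0.90 in neonatal cells on wild-type sections. All adult arrays lay below all neonatal arrays. The log2 difference, adult minus neonatal, was -1.96 ± 0.10 on APdE9 sections (SE, n = 3 per group; limma adjusted p = 2.14e-08) and -2.04 ± 0.10 on wild-type sections (limma adjusted p = 1.09e-08). This is a signal 3.89-fold and 4.11-fold lower.

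H2-Ab1, the beta chain of I-A, had values of -0.91, -0.60 and -0.61 in adult cells on APdE9 sections and -0.83, -0.89 and -0.94 in adult cells on wild-type sections. In neonatal cells they were 0.65, 1.03 and 0.68 on APdE9 sections and 0.86, 0.78 and 0.55 on wild-type sections. The ages did not overlap, and the difference was -1.49 ± 0.12 on APdE9 sections (limma adjusted p = 1.81e-06) and -1.62 ± 0.12 on wild-type sections (limma adjusted p = 6.24e-07). H2-Eb1, the beta chain of I-E, had values of -0.90, -0.80 and -0.48 in adult cells on APdE9 sections and -0.56, -0.80 and -0.81 in adult cells on wild-type sections. Its neonatal values were 0.50, 0.54 and 0.61 on APdE9 sections and 0.48, 0.76 and 0.53 on wild-type sections. Again no adult array reached a neonatal one, and the difference was -1.28 ± 0.12 on APdE9 sections and -1.31 ± 0.12 on wild-type sections (limma adjusted p = 5.16e-06 and 2.94e-06). In the RefSeq order of protein-coding genes H2-Ab1, H2-Aa and H2-Eb1 are direct neighbours on chromosome 17.

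Cd74, the invariant chain that fills the groove of new class II molecules, had a single probe set. It stood at -0.81, -0.55 and -0.80 in adult cells on APdE9 sections and at -0.77, -0.77 and -0.75 in adult cells on wild-type sections, against 0.76, 0.55 and 0.64 in neonatal cells on APdE9 sections and 0.59, 0.59 and 0.64 in neonatal cells on wild-type sections. The SD over the 3 adult wild-type arrays was 0.01. Cd74 was 2.59-fold lower in adult cells on APdE9 sections (-1.37 ± 0.09, limma adjusted p = 1.44e-07) and 2.58-fold lower on wild-type sections (-1.37 ± 0.09, limma adjusted p = 1.05e-07).

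H2-DMa, the alpha chain of the peptide exchanger H2-DM, moved less. Its values were -0.10, 0.01 and -0.22 in adult cells on APdE9 sections and -0.44, -0.50 and -0.41 in adult cells on wild-type sections. In neonatal cells they were 0.27, -0.02 and 0.35 on APdE9 sections and 0.17, 0.29 and 0.16 on wild-type sections. The ages were apart on wild-type sections and overlapped on APdE9 sections. The difference was -0.66 ± 0.10 on wild-type sections (limma adjusted p = 0.000272) and -0.30 ± 0.10 on APdE9 sections (limma adjusted p = 0.0473). The replicate numbers paired the APdE9 arrays of the 2 ages, and with that block the second value had an adjusted p of 0.0541. It also lost its call on leaving out any single array other than adult APdE9 replicate 2 or neonatal APdE9 replicate 2 (10 of 12 fits, adjusted p 0.056 to 0.171).

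Ciita, the coactivator of the class II promoters, lay between -0.18 and 0.18 on all 12 arrays. The means were 0.06 ± 0.13 in adult cells on APdE9 sections, -0.09 ± 0.07 in adult cells on wild-type sections, 0.02 ± 0.10 in neonatal cells on APdE9 sections and -0.04 ± 0.13 in neonatal cells on wild-type sections (SD, n = 3). All 4 groups overlapped. The age difference was 0.04 on APdE9 sections (95% interval -0.17 to 0.25, limma adjusted p = 0.818) and -0.05 on wild-type sections (-0.26 to 0.15, limma adjusted p = 0.752). Its 3 probe sets correlated with each other between 0.08 and 0.45 over the 12 arrays, where the 4 probe sets of H2-Aa correlated between 0.85 and 0.97. Since levels had been removed, it is unknown whether the Ciita probe sets rose above background.

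**Figure D2:**
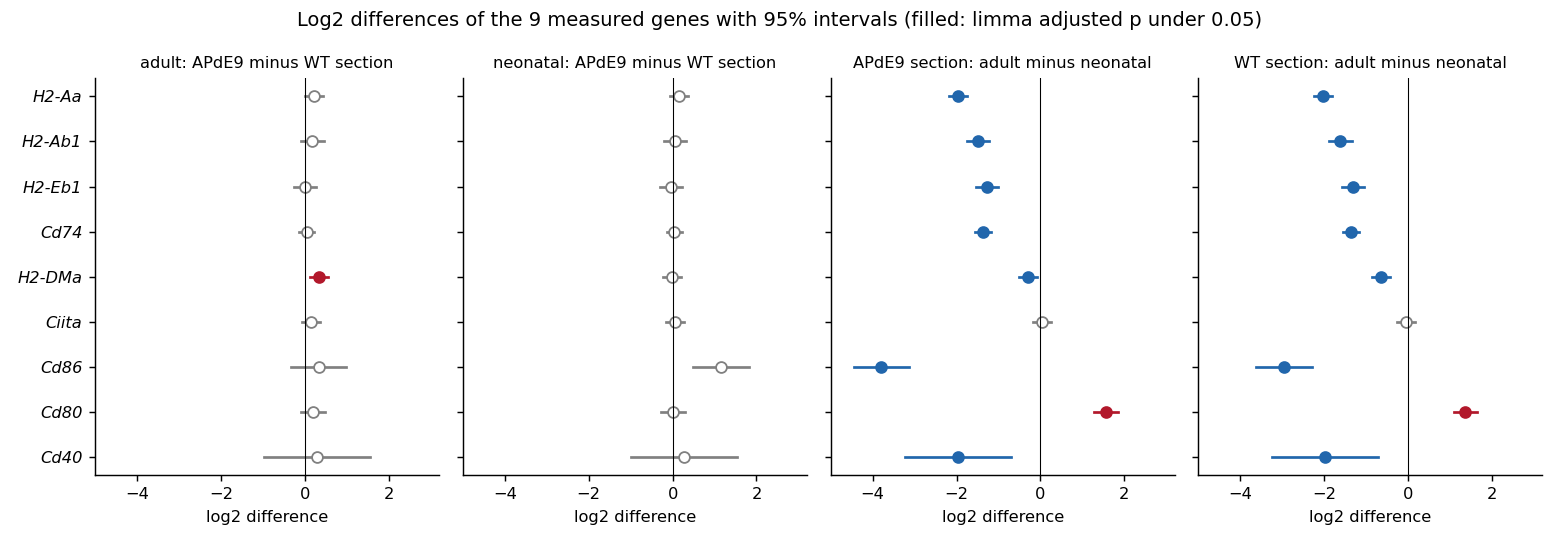
Log2 difference of each of the 9 measured genes (points) with its 95% interval (lines) in 4 comparisons, APdE9 minus wild-type section in adult and in neonatal cells and adult minus neonatal cells on each section, with filled points where the limma adjusted p was under 0.05. Age separates the genes by up to -3.79 (Cd86), whereas 1 filled point, H2-DMa in adult cells, stands in the section panels.

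Among the costimulatory genes, Cd86, a ligand of CD28 and CTLA4, differed most with age. It stood at -1, -1.16 and -0.96 in adult cells on APdE9 sections and at -1.53, -1.47 and -1.10 in adult cells on wild-type sections, against 3.24, 2.53 and 2.49 in neonatal cells on APdE9 sections and 2.41, 1.44 and 0.94 in neonatal cells on wild-type sections. No adult array came near a neonatal one. The signal was 13.8-fold lower in adult cells on APdE9 sections (-3.79 ± 0.30, limma adjusted p = 1.37e-06) and 7.80-fold lower on wild-type sections (-2.96 ± 0.30, limma adjusted p = 9.05e-06).

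Cd80, the other ligand of CD28 and CTLA4, went the opposite way. Its values were 1.27, 0.85 and 0.65 in adult cells on APdE9 sections and 0.82, 0.73 and 0.63 in adult cells on wild-type sections, against -0.59, -0.66 and -0.66 in neonatal cells on APdE9 sections and -0.56, -0.64 and -0.71 in neonatal cells on wild-type sections. All adult arrays lay above all neonatal arrays. Cd80 was 2.94-fold higher in adult cells on APdE9 sections (1.56 ± 0.13, limma adjusted p = 1.92e-06) and 2.57-fold higher on wild-type sections (1.36 ± 0.13, limma adjusted p = 4.68e-06).

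Cd40, the receptor for CD40 ligand, spread widely among neonatal arrays. It stood at -0.21, -0.21 and -0.43 in adult cells on APdE9 sections and at -0.58, -0.75 and -0.43 in adult cells on wild-type sections. In neonatal cells it stood at 2.85, 1.5 and 0.66 on APdE9 sections and at 2.73, 1.33 and 0.11 on wild-type sections, in the order of replicates 1, 2 and 3. On each section neonatal replicate 1 was the highest and replicate 3 the lowest, and all were above the adult arrays. The difference, adult minus neonatal, was -1.95 ± 0.58 on APdE9 sections (limma adjusted p = 0.0278) and -1.98 ± 0.58 on wild-type sections (limma adjusted p = 0.0207). On APdE9 sections the call was lost without neonatal APdE9 replicate 1 (-1.37, adjusted p = 0.117), neonatal APdE9 replicate 2 (0.057) or adult APdE9 replicate 1 (0.0589), 2 (0.0671) or 3 (0.0701), and with a robust variance prior (0.0553). On wild-type sections 4 arrays decided the call. Leaving out neonatal wild-type replicate 1 gave -1.31 (limma adjusted p = 0.0792), and leaving out neonatal replicate 2, adult replicate 1 or adult replicate 2 gave adjusted p of 0.0533, 0.0523 and 0.0658.

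Apart from Ciita, the probe sets of a gene had the same direction with age but unequal sizes. Of the 23 single-gene probe sets, 15 were called lower and 3 higher in adult cells on wild-type sections, where 10.8% and 12.2% of all probe sets were. On APdE9 sections 13 were lower and 3 higher, where 8.39% and 8.04% were. The 4 probe sets of H2-Aa differed by -4.05 ± 0.23, -2.05 ± 0.20, -1.20 ± 0.12 and -0.85 ± 0.14 on wild-type sections, and all 4 were called (limma adjusted p between 7.28e-08 and 0.000651). The 3 of H2-Ab1 gave -2.87 ± 0.17, -1.18 ± 0.14 and -0.79 ± 0.19 there. All 4 H2-Aa probe sets carry a suffix that marks possible binding to transcripts of related genes. The H2-Ab1 probe sets at -2.87 and -0.79 carry one too. So do the H2-DMa probe set at -0.57 and the called Cd40 probe sets, both given below. Signal from related genes cannot be told apart here. Of the 4 Cd80 probe sets 3 were higher on wild-type sections, by 2.56 ± 0.18, 1.83 ± 0.28 and 0.92 ± 0.16, while the remaining one was at 0.14 ± 0.15 (limma adjusted p = 0.61). The 2 probe sets of Cd86 gave -3.10 ± 0.25 and -2.83 ± 0.37. Both probe sets of H2-DMa were called on wild-type sections, at -0.74 ± 0.13 and -0.57 ± 0.11. On APdE9 sections neither was, at -0.27 ± 0.13 and -0.33 ± 0.11 (limma adjusted p = 0.191 and 0.0573). Of the 3 for Cd40, 2 were called lower on each section, and the third was at -1.09 on APdE9 sections (limma adjusted p = 0.137) and -1.21 on wild-type sections (limma adjusted p = 0.0781).

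**Figure D3:**
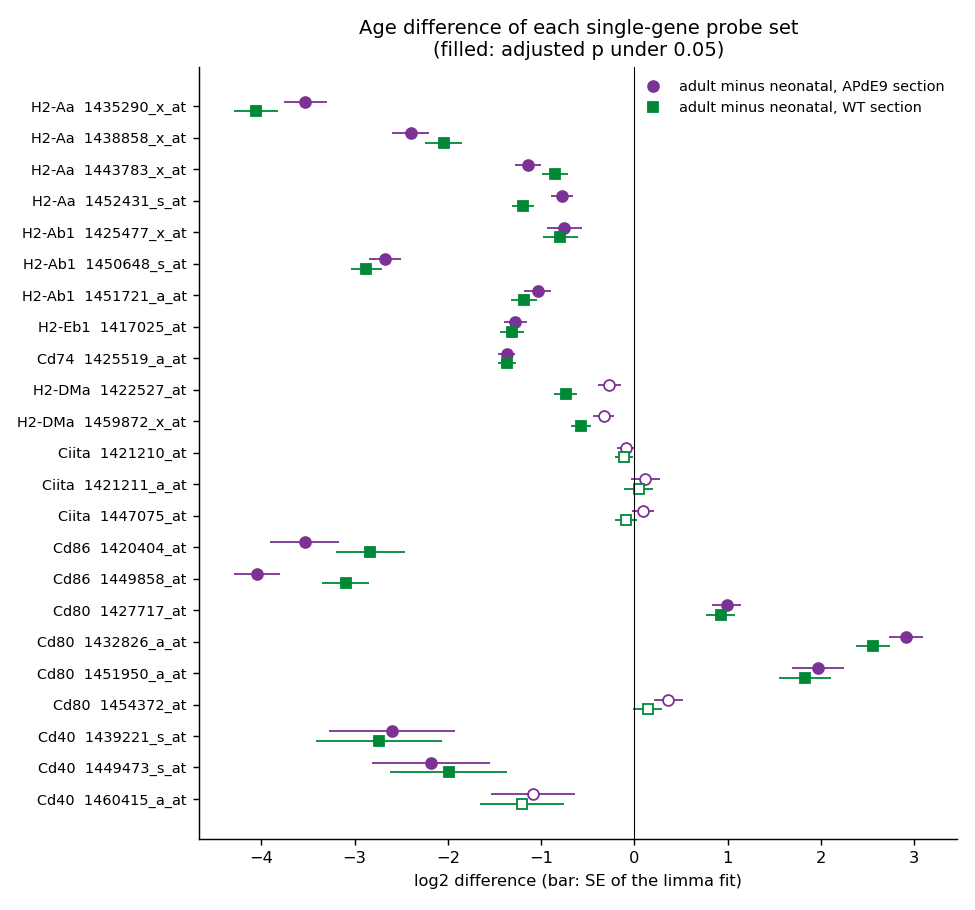
Log2 difference, adult minus neonatal, of each of the 23 single-gene probe sets, with the SE of the limma fit as bars, for APdE9 sections (circles) and wild-type sections (squares), filled where the adjusted p over all probe sets was under 0.05. The 4 probe sets of H2-Aa lie between -4.05 and -0.78, and the 3 of Ciita straddle 0.

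The second question was what an APdE9 section did to these genes in adult cells. H2-DMa was the 1 gene of 9 that passed the test, where 17.7% of all genes were called (8.26% higher and 9.4% lower). Its adult values, given above, did not overlap between the sections, and it was higher on APdE9 sections by 0.35 ± 0.10 (1.27-fold, limma adjusted p = 0.031). Leaving out any one of 5 adult arrays ended the call, with an adjusted p of 0.0713, 0.106 or 0.059 for wild-type replicates 1, 2 and 3, and of 0.0718 or 0.124 for APdE9 replicates 1 and 2. H2-Aa did not overlap between the sections either, at 0.23 ± 0.10 (limma adjusted p = 0.137), and 2 of its 4 probe sets lay near the threshold, one at 0.76 ± 0.23 (limma adjusted p = 0.0518) and one at 0.40 ± 0.12 (limma adjusted p = 0.0502). The other 2 were at -0.16 and -0.08. H2-Ab1 was at 0.18 (95% interval -0.08 to 0.45), H2-Eb1 at 0.00 (-0.26 to 0.26) and Cd74 at 0.04 (-0.14 to 0.23). Cd86 was at 0.33 (-0.33 to 0.99), Cd80 at 0.20 (-0.09 to 0.48), Ciita at 0.15 (-0.06 to 0.35) and Cd40 at 0.30 (-0.96 to 1.57). The fit pools the spread of all 4 groups, which for Cd86 and Cd40 was wider in neonatal cells. Adult SDs on APdE9 and wild-type sections were 0.10 and 0.23 for Cd86 and 0.13 and 0.16 for Cd40. Neonatal SDs were 0.42 and 0.74 for Cd86 and 1.10 and 1.31 for Cd40. Adult arrays were apart for 1 probe set of Cd86 (0.45, limma adjusted p = 0.297) and 1 of Cd40 (0.53, limma adjusted p = 0.684). Their other probe sets overlapped. With quantile normalization H2-DMa was not called (0.28, limma adjusted p = 0.12) and Cd80 was (0.48, limma adjusted p = 0.0343).

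In neonatal cells none of the 9 genes passed the limma test between the sections, where 3.76% of all genes did (1.21% higher and 2.55% lower). Cd86 had an unadjusted p of 0.00254 and was the only one under 0.05. Its neonatal arrays on APdE9 sections all lay above those on wild-type sections, by 1.15 ± 0.30 (2.23-fold, limma adjusted p = 0.0607). The replicate numbers paired the neonatal arrays of the 2 sections, and with that block the adjusted p was 0.0257. Its 2 probe sets gave 1.40 ± 0.25 (limma adjusted p = 0.0146) and 0.91 ± 0.37 (limma adjusted p = 0.337). The first was the only one of the 23 probe sets called here, where 0.582% of all probe sets were called higher. Leaving out single arrays moved the Cd86 difference between 0.83 and 1.56. It was called only without neonatal wild-type replicate 1 (1.56, limma adjusted p = 0.00345), and the other 11 fits gave an adjusted p of 0.0724 to 0.224. The class II genes had intervals close to 0, from -0.06 to 0.37 for H2-Aa, from -0.21 to 0.32 for H2-Ab1, from -0.30 to 0.22 for H2-Eb1 and from -0.14 to 0.23 for Cd74. Cd80 was at 0.00 (-0.28 to 0.29) and Cd40 at 0.28 (-0.98 to 1.54), both without the replicate block. For Cd40 this interval includes the wide spread among replicates. Within each replicate number Cd40 was higher on the APdE9 section than on the wild-type section (2.85 and 2.73, 1.5 and 1.33, 0.66 and 0.11). With the replicate block Cd40 was still not called.

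No gene of the 9 passed the limma test of whether the section effect differed between the ages, where 10.1% of all genes did (5.19% higher and 4.88% lower). H2-DMa came nearest, with an adult section effect above the neonatal one by 0.36 ± 0.14 (unadjusted p = 0.0271, limma adjusted p = 0.148), and was the only one with an unadjusted p under 0.05. For Cd86 the difference of the effects was -0.83 ± 0.43 (limma adjusted p = 0.282). Leaving out the first neonatal wild-type array gave -1.23 (limma adjusted p = 0.0271), and leaving out the third gave -0.50 (limma adjusted p = 0.453). In the order of group means, neonatal APdE9 was the highest group for H2-Aa, H2-Ab1, Cd74, Cd86 and Cd40, and adult wild-type the lowest for the same genes. Neighbouring means of one age did not differ by the test for any of these 5 genes. For H2-Eb1 the 2 neonatal means (0.55 on APdE9 and 0.59 on wild-type sections) and the 2 adult means (-0.72 each) did not differ beyond their spread.

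Other genes of the class II pathway were counted from a list of 19. Of these 5 were lower and none higher in adult than in neonatal cells on APdE9 sections, and 6 were lower and 1 higher on wild-type sections, with medians of -0.10 and -0.11. These are 26.3% and 36.8% of the list, near the 23.5% and 30.1% of all genes called. Ctss, the protease that trims the invariant chain, had values of -1.93, -1.91 and -2.05 in adult cells on APdE9 sections and -4.92, -5.49 and -6.08 in adult cells on wild-type sections. In neonatal cells it ranged from 1.91 to 2.44. Its age difference was -4.35 ± 0.22 on APdE9 sections (limma adjusted p = 2.35e-08) and -7.60 ± 0.22 on wild-type sections (limma adjusted p = 1.52e-10). Lgmn, an endosomal protease, was at -1.95 ± 0.10 and -1.34 ± 0.10 on the same sections, and Marchf1, a ligase that removes class II from the surface, at -1.43 ± 0.10 and -0.89 ± 0.10. Nfyb, a subunit of the Y-box factor NF-Y, was lower on APdE9 sections (-0.46 ± 0.10) and higher on wild-type sections (0.32 ± 0.10). Rfxap, a subunit of the X-box factor RFX, was at -0.46 ± 0.15 on wild-type sections. Between sections in adult cells, 1 gene of the list was higher, Ctss (3.53 ± 0.22), and 3 were lower (21.1% of the list in all, beside 17.7% of all genes), Rfx5 of the RFX complex (-0.88 ± 0.20), Nfyb (-0.70 ± 0.10) and Lgmn (-0.43 ± 0.10). In neonatal cells Marchf1 was higher (0.58 ± 0.10, limma adjusted p = 0.00874), or 5.26% of the list beside 3.76% of all genes.

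Of 13 measured genes upstream of CIITA, among them receptors and kinases of the interferon gamma pathway, 2 were lower and 1 higher with age on APdE9 sections, and 3 were lower and 1 higher on wild-type sections. At 23.1% and 30.8%, the shares called were close to those of all genes (23.5% and 30.1%). Irf8, a myeloid transcription factor, was at -2.96 ± 0.15 and -2.64 ± 0.15 (limma adjusted p = 2.67e-08 and 5.24e-08). Spi1, which encodes the myeloid factor PU.1, was at -1.64 ± 0.16 and -1.65 ± 0.16, and the kinase gene Jak1 was higher by 0.89 ± 0.13 and 0.71 ± 0.13. Irf9, a partner of the interferon-activated STAT factors, was at -0.81 ± 0.13 on wild-type sections. Between the sections 1 gene of the list was called in adult cells, Irf9 (0.70 ± 0.13, limma adjusted p = 0.00218), and 1 in neonatal cells, Irf8 (0.70 ± 0.15, limma adjusted p = 0.0246). Each is 7.69% of the list, beside 17.7% of all genes in adult and 3.76% in neonatal cells.

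Other costimulatory and adhesion genes also differed with age. Of 15 measured, 6 were lower and 1 higher in adult cells on APdE9 sections and 7 lower and 1 higher on wild-type sections, or 46.7% and 53.3% of the list beside 23.5% and 30.1% of all genes. The dendritic cell surface gene Cd83 was at -3.67 ± 0.95 and -4.94 ± 0.95, Cd48, a ligand of CD244, at -3.27 ± 0.23 and -3.56 ± 0.23, and Cd274, which encodes the checkpoint ligand PD-L1, at -2.29 ± 0.34 and -2.30 ± 0.34 (limma adjusted p between 1.34e-07 and 0.0137). Cd83 had the same unevenness as Cd40. Its neonatal values in the order of replicates 1, 2 and 3 were 4.45, 3.21 and 0.63 on APdE9 sections and 4.89, 3.69 and 0.91 on wild-type sections. Between sections in adult cells Vcam1, an adhesion molecule for leukocytes, was higher by 1.05 ± 0.08 (limma adjusted p = 4.33e-06) and Cd24a by 0.54 ± 0.08. These are 13.3% of the list, beside 17.7% of all genes. In neonatal cells Lgals9 (0.50 ± 0.11) and Vcam1 (0.36 ± 0.08) were higher and Cd24a was lower (-0.52 ± 0.08). That is 20% of the list, beside 3.76% of all genes. On the side of the T cell, Cd28 was lower with age (-0.40 ± 0.12 on APdE9 and -0.80 ± 0.12 on wild-type sections), 1 of 5 genes called there, and none of the 5 was called between sections at either age. That 20% of the list with age lies below the 23.5% and 30.1% of all genes. Between sections the 0% stands beside 17.7% of all genes in adult and 3.76% in neonatal cells.

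Of 12 genes that signal below CD40, 2 were lower and 1 higher with age on APdE9 sections, and 3 were lower and 1 higher on wild-type sections. The shares called, 25% and 33.3%, were near the 23.5% and 30.1% of all genes. Traf1, an adaptor of CD40 and related receptors, had neonatal values of 1.90, 0.98 and 0.31 on APdE9 sections and 2.10, 1.11 and 0.14 on wild-type sections in the order of replicates 1, 2 and 3. Neonatal replicate 1 was thus the highest and replicate 3 the lowest, as for Cd40. Its age difference was -1.47 ± 0.43 on APdE9 sections and -1.67 ± 0.43 on wild-type sections (limma adjusted p = 0.0261 and 0.0101). Relb, an NF-kB subunit, was at -0.64 ± 0.20 and -1.13 ± 0.20, Rela, another subunit, was at -0.59 ± 0.10 on wild-type sections, and Traf5 was higher by 0.41 ± 0.13 and 0.45 ± 0.13. Between sections in adult cells Rela was higher (0.52 ± 0.10) and Birc3 lower (-0.63 ± 0.20, limma adjusted p = 0.0496). These are 16.7% of the list, beside 17.7% of all genes. None of the 12 was called between sections in neonatal cells, where 3.76% of all genes were.

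MHC class I genes, which serve CD8 T cells, were set beside the class II genes in adult cells on the 2 sections. Of 10 measured class I and immunoproteasome genes 8 were higher on APdE9 sections, where 8.26% of all genes were called higher. Their median was 0.66 against 0.20 for the 9 genes described here and 0.05 over all genes, and whether the 2 lists differ was not tested. H2-K1, a class I heavy chain, was higher by 1.37 ± 0.08 (limma adjusted p = 2.9e-07). Nlrc5, the class I counterpart of CIITA, was higher by 1.10 ± 0.22 (limma adjusted p = 0.00428) where Ciita was at 0.15 ± 0.09. Of the 3 Ciita probe sets, 1 did not overlap between the sections (0.24 ± 0.10, limma adjusted p = 0.152). The others overlapped, at 0.08 and 0.12. With age 8 of the 10 were lower on APdE9 sections and 10 of 10 on wild-type sections, where 11.9% and 15.2% of all genes were called lower. The largest differences were those of the immunoproteasome subunit Psmb8 on APdE9 sections (-1.59 ± 0.13) and of H2-K1 on wild-type sections (-2.51 ± 0.08).

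**Figure D4:**
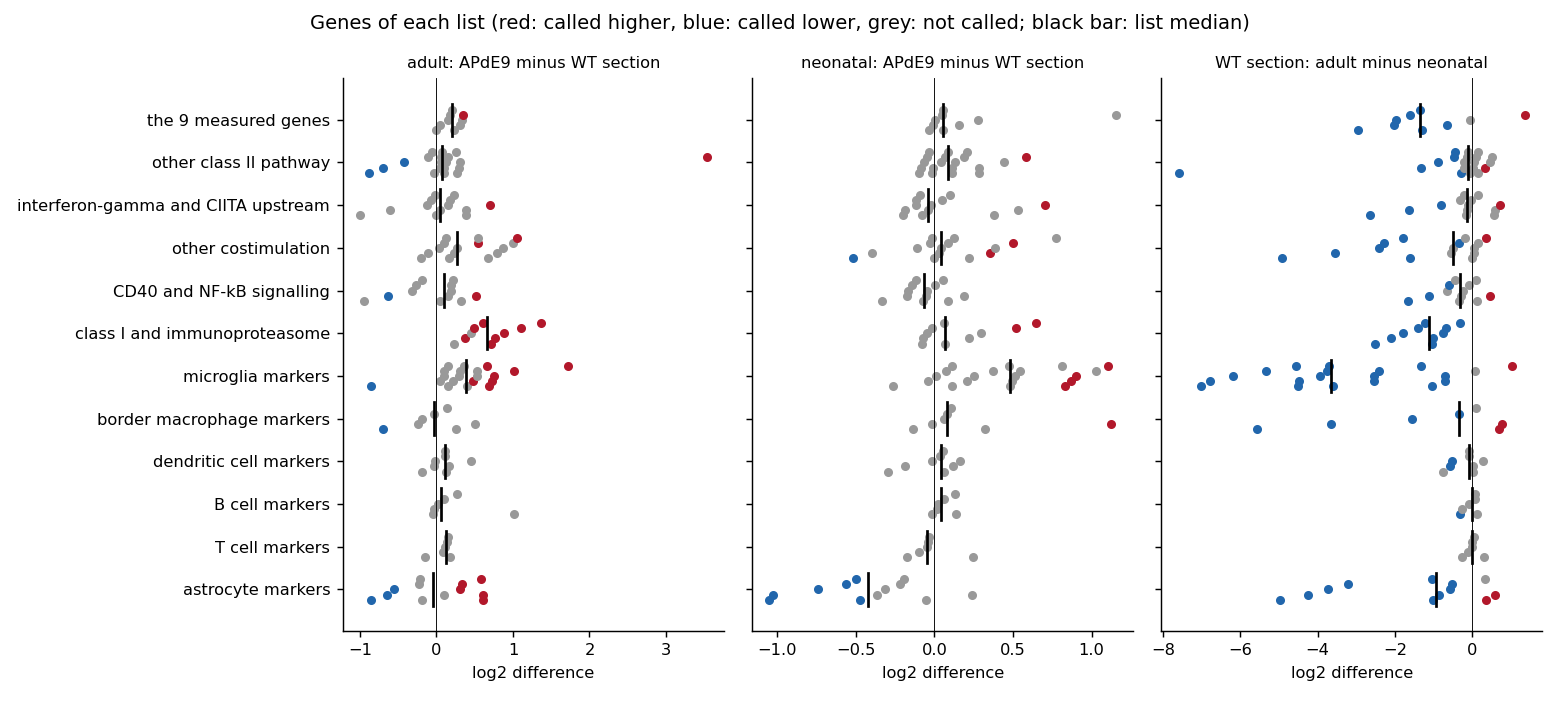
Log2 difference of every measured gene of each list (points, red called higher, blue called lower, grey not called) with the list median (black bar), for adult APdE9 minus adult wild-type, neonatal APdE9 minus neonatal wild-type, and adult minus neonatal on wild-type sections. Microglia markers reach -7.02 with age, while B cell and T cell markers stay near 0, and in adult cells the class I list has a median of 0.66 beside 0.20 for the 9 genes described here.

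Markers of some other cell types moved with age beside the class II genes. Over all genes, 23.5% were called with age on APdE9 sections and 30.1% on wild-type sections. Between sections 17.7% of all genes were called in adult cells and 3.76% in neonatal cells. Of 20 measured microglia markers 18 were lower in adult cells on APdE9 sections (none higher, median -3.54) and 18 lower on wild-type sections (1 higher, median -3.66). That is 90% and 95% of the list. The complement genes C1qb and C1qc were at -7.07 ± 0.31 and -6.48 ± 0.21 on APdE9 sections and at -6.78 ± 0.31 and -7.02 ± 0.21 on wild-type sections. The mean centred value of the list ranged from -1.39 to -1.33 in adult cells on APdE9 sections and from -1.96 to -1.68 in adult cells on wild-type sections, against 1.77 to 1.94 in neonatal cells on APdE9 sections and 1.24 to 1.75 in neonatal cells on wild-type sections. Between sections 7 microglia markers were higher and 1 lower in adult cells (40% of the list), and 4 were higher and none lower in neonatal cells (20%). Of 7 border macrophage markers 5 were lower and 1 higher with age on APdE9 sections and 4 lower and 2 higher on wild-type sections (85.7% on each). Of 8 dendritic cell markers none was called on APdE9 sections and 2 were lower on wild-type sections. Of 6 B cell markers 1 was lower on each section, and of 6 T cell markers none was called. The shares called on APdE9 and wild-type sections were 0% and 25% for dendritic cell markers. They were 16.7% on each section for B cell markers and 0% for T cell markers. None of these exceeded the share of all genes called in either direction. All called dendritic and B cell markers were lower, and 11.9% and 15.2% of all genes were called lower. Against those, the B cell share was higher on both sections and the dendritic share on wild-type sections. These shares rest on 1 B cell marker per section and 2 dendritic cell markers. Astrocyte markers are given above, and between sections 5 of the 12 were higher and 3 lower in adult cells (66.7% of the list), and 6 were lower and none higher in neonatal cells (50%). Some markers were higher in adult cells, as Cd80 was. Of 7 endothelial markers 4 were higher and 1 lower on APdE9 sections and 3 higher and 2 lower on wild-type sections, with Esam at 3.87 ± 0.15 and 3.47 ± 0.15. Of 8 fibroblast and mural markers 1 was higher and 1 lower on APdE9 sections and 4 were higher and none lower on wild-type sections, with Col1a1 at 3.08 ± 0.16 and 4.06 ± 0.16. Of 7 oligodendrocyte markers 2 were lower and 1 higher on APdE9 sections and 2 lower on wild-type sections, with Olig1 at -2.27 ± 0.09 and -4.00 ± 0.09. Of 8 neuron markers 1 was higher and 1 lower on each section. The shares called on APdE9 and wild-type sections were 71.4% on each for endothelial and 25% on each for neuron markers. They were 25% and 50% for fibroblast and mural markers and 42.9% and 28.6% for oligodendrocyte markers. Because levels were removed, which of these markers are near background is unknown. The protocol states that cultures were shaken to remove microglia and that few remained, and the part of other cell types in the age differences of the class II genes, Cd86, Cd80 and Cd40 was not tested.

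The genes whose pattern over the 12 arrays was most like each of the 9 are given as a description. Apart from Ciita, which showed no split by age, both sides mainly share that split. The likeness was the Pearson correlation of the centred values over 12 arrays, and the 3 highest were taken. For Cd86 they were Blnk (0.993), Vav1 (0.992) and Folr2 (0.991), and for Cd40 Traf1 (0.990), Treml4 (0.972) and Tnfrsf1b (0.971). For H2-Aa they were Npvf (0.996), Prom1 (0.994) and Clu (0.993), and for Cd74 Npvf (0.995), Glycam1 (0.994) and Clu (0.993). H2-Ab1 was most like Fnbp1 (0.993), Plxnc1 (0.990) and Rgs20 (0.988), and H2-Eb1 most like Mapt (0.987), Astn1 (0.985) and Kcne1l (0.984). H2-DMa was nearest to Mt3 (0.965), Kcna1 (0.963) and Ifi27l2a (0.956), and Cd80 to Prickle2 (0.990), Adh7 (0.986) and Tug1 (0.985). For Ciita the 3 were Theg (0.948), Dnajc5g (0.907) and Cox8c (0.904). Among the 9 genes themselves the 4 genes H2-Aa, H2-Ab1, H2-Eb1 and Cd74 correlated between 0.966 and 0.991 with each other. Ciita correlated with them between 0.04 and 0.17.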

How the data were processed

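RMA produced the signals, per the submitters' processing notes. Values deposited for 8 arrays were taken as log2. No label gives the base of the logarithm, and it was assumed from what RMA usually writes. Nor is the direction of the centring stated, and a positive value was read as a signal above the median, on which every higher and lower rests. The deposited columns of the remaining 4 arrays hold the same log2 signals apart from 6 entries above 100 in size, which look as if a decimal point was lost, so that a column as deposited is a score with no fixed range. These 6 were treated as missing, the others as log2, and the genes described had 0 of them. All 45095 complete probe sets had a median of 0 over the 12 arrays (tolerance 1e-06).

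After removal of 64 controls from 45101 probe sets, 34945 were annotated to 1 gene, 932 to several and 9160 to none, and 34741 of the first kind matched RefSeq. A gene's value was the average of its single-gene probe sets, which gave 18193 genes. limma (version 3.58.1, R 4.3.3) estimated 4 group means from the 12 arrays, with 8 residual and 3.97 prior degrees of freedom. Benjamini-Hochberg adjustment ran over all genes, and calls needed an adjusted p under 0.05. Other tools were data.table (version 1.17.8), pandas (2.3.3) and matplotlib (3.10.9). A check of the fit on simulated data drew each array independently, so it does not cover the replicate pairing described below.

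The genes and lists were chosen with earlier results of these data known. Named genes are the 9 measured ones, up to 4 called genes per list with the largest differences, and the 3 genes most like each of the 9, unnamed predictions aside. A replicate number counted as pairing where each pair's deviations from the group means correlated above 0.1. Neonatal cells on the 2 sections met this (0.305, 0.147, 0.519), as did the 2 ages on APdE9 sections (0.46, 0.206, 0.473). Adult cells on the 2 sections (-0.147 for replicate 2) and the ages on wild-type sections (0.025 for replicate 2) did not. Results were recomputed with quantile normalization, with median centring, with array weights, with a replicate block, on the compared arrays alone, on probe sets, without the 40% of genes of lowest SD (levels, and so a filter on them, were not to be had), with a robust prior, and without each array.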

Additional observations from a re-analysis of the deposited data

Results flagged for a closer look

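None of the 9 genes differed between the ages in its section effect by the limma test, where 10.1% of all genes did. The other lists together hold many more genes. Their shares called ran from 0% (as for neuron markers) to 62.5% (fibroblast and mural markers). This gave 28 called genes, listed here as adult section effect minus neonatal section effect. In the class II pathway these were Ctss (3.25 ± 0.31, adjusted p = 6.09e-05), Nfyb (-0.78 ± 0.14), Lgmn (-0.61 ± 0.14) and Marchf1 (-0.54 ± 0.15). Upstream of CIITA it was Ifngr2 (-1.14 ± 0.31, adjusted p = 0.0394), a chain of the interferon gamma receptor. Among costimulatory and CD40 signalling genes they were Cd24a (1.06 ± 0.12), Vcam1 (0.69 ± 0.12) and Rela (0.69 ± 0.14). Among class I genes they were H2-K1 (1.41 ± 0.11), H2-D1 (0.70 ± 0.10) and Tapbp (0.68 ± 0.13). Of the astrocyte markers 6 were called, Aldoc (1.39 ± 0.11), Aqp4 (1.32 ± 0.11), Sox9 (0.80 ± 0.18), Gfap (0.79 ± 0.16), Slc1a3 (0.67 ± 0.13) and Aldh1l1 (0.60 ± 0.11). Of the microglia markers 3 were called, Sall1 (0.95 ± 0.15) and Cd68 (0.89 ± 0.25) in one direction and Tmem119 (-0.97 ± 0.18) in the other. The border macrophage marker was Cbr2 (-1.81 ± 0.19, adjusted p = 0.000113). The oligodendrocyte markers were Olig1 (1.73 ± 0.13) and Cnp (0.85 ± 0.11). The fibroblast and mural markers were Lum (-1.64 ± 0.24), Acta2 (-1.25 ± 0.18), Col1a1 (-0.97 ± 0.23), Rgs5 (-0.72 ± 0.12) and Col3a1 (-0.68 ± 0.16). With 3 arrays per group, outlying single arrays were not tested.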

How the results depend on the processing

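The 8 calls of 9 with age numbered 6 to 7 on APdE9 sections and 7 to 8 on wild-type sections when single arrays were left out, and none of the 17 called differences changed sign in 340 alternative fits, of which 31 lost the call. All 31 belong to H2-DMa and Cd40. With the replicate block, which changed no other call, Cd86 gained its call between sections in neonatal cells and H2-DMa lost its call with age on APdE9 sections. For age on APdE9 sections H2-DMa lost its call also with array weights (adjusted p = 0.0703), with the 6 arrays compared (0.124) and with probe sets as the unit (0.0573). The count of called genes between sections in neonatal cells was 1, higher, in place of 0 with quantile normalization, array weights, the replicate block, the SD filter and probe sets as the unit, and 0 to 1 on leaving out single arrays. In each of these it was Cd86. In adult cells it was 0 in place of 1 with probe sets as the unit, and 0 to 1 on leaving out single arrays. For the difference of the section effects it was 1 in place of 0 with array weights (H2-DMa, 0.45, adjusted p = 0.0304), and 0 to 1 on leaving out single arrays. Some differences that were not called changed sign under some alternatives. Many lay near 0, while Cd40 between sections in neonatal cells was at 0.28. The range given for it comes from fits without the replicate block. Between sections in neonatal cells H2-Eb1 was at 0.0627 and H2-DMa at 0.0029 with quantile normalization and Cd80 was at -0.0034 with array weights. Leaving out single arrays there gave ranges that include 0 for H2-Ab1 (-0.0656 to 0.1217), H2-Eb1 (-0.0934 to 0.048), Cd74 (-0.0084 to 0.0952), H2-DMa (-0.0827 to 0.0999), Ciita (-0.0181 to 0.1103), Cd80 (-0.0337 to 0.0407) and Cd40 (-0.3636 to 0.9482). Between sections in adult cells H2-Eb1 was at 0.0097 with array weights. Leaving out single arrays there gave ranges that include 0 for H2-Eb1 (-0.1249 to 0.0859) and Cd74 (-0.0419 to 0.0862). For the difference of the section effects H2-Aa was at -0.1203, H2-Ab1 at -0.0535, H2-Eb1 at -0.0833 and Cd40 at -0.0254 with quantile normalization, Cd74 was at 0.0374 with array weights, Cd40 was at -0.008 with median centring and Cd40 was at -0.1868 with probe sets as the unit. Leaving out single arrays there gave ranges that include 0 for H2-Eb1 (-0.0873 to 0.1235), Cd74 (-0.0876 to 0.0505) and Cd40 (-0.6463 to 0.6655). With age on APdE9 sections Ciita was at -0.0035 with quantile normalization and Ciita was at -0.0923 with probe sets as the unit. Leaving out single arrays there gave ranges that include 0 for Ciita (-0.0233 to 0.1085). The cause of these changes was not tested. The signal over background, which limits what dim probe sets can show, could not be computed.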
